A study of Mus musculus with 4 samples.

Results

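In the single-cell RNA sequencing data of mouse bone, 176 of 31279 cells (0.563%) held transcripts of monocyte receptors together with transcripts of primary granule proteases and few transcripts of dividing cells. These cells, named here monocyte progenitors with primary granule transcripts, were chosen by counts of UMIs (unique molecular identifiers, each standing for 1 captured transcript molecule). A barcode entered when it held 1000 to 40000 UMIs, at least 200 genes, no more than 10% of UMIs from mitochondrial genes and no more than 0.2% from haemoglobin genes. It then needed at least 3 UMIs of Csf1r, Ms4a6c and Ccr2 together, at least 10 UMIs of Mpo, Elane, Prtn3 and Ctsg together, fewer than 3 UMIs of Top2a, Mki67 and Cdk1 together, and less than 2% of its UMIs from Camp, Ngp and Ltf. The levels of these 13 genes were therefore selected on and are given only as a description.

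Wild-type mice were studied in 2 groups, control (Ctrl) and hindlimb unloading (HLU), in which the tail is suspended for 28 days so that the hind limbs bear no load. Each group had 2 libraries, each from a different mouse. The tibiae and femurs were flushed of marrow and digested, and the released cells were sequenced with the 10x Genomics 3′ chemistry. The sources differ on the age of the mice, which is not given here, and the flushing means that the blood-forming cells described below are those that stayed with the bone.

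Monocytes and neutrophils descend from shared granulocyte and monocyte progenitors of the bone marrow. Myeloperoxidase (Mpo), neutrophil elastase (Elane), proteinase 3 (Prtn3) and cathepsin G (Ctsg) are packed into the primary, or azurophilic, granules early in this process, and their transcripts fade as cells mature along either branch. The transcription factor IRF8 directs progenitors to the monocyte branch, whereas C/EBPε and GFI1 direct the granulocyte branch, and monocytes can in turn give rise to macrophages and bone-resorbing osteoclasts.

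The cells numbered 21 of 7311 in Ctrl replicate 1, 37 of 7495 in Ctrl replicate 2, 57 of 7571 in HLU replicate 1 and 61 of 8902 in HLU replicate 2. Throughout, values of 4 libraries are given in this order. Their summed transcripts came to 366361, 705860, 937772 and 1508089 UMIs, so the levels of Ctrl replicate 1 rest on the fewest molecules. The median cell held 16695, 17405, 15613 and 23858 UMIs. A score for doublets (2 cells captured as 1) marked 3, 2, 2 and 7 of the cells, or 14.3%, 5.41%, 3.51% and 11.5%, against 5.85% to 7.12% of all cells of a library. Pairs of libraries shared 13 to 21 barcodes, at most 0.280% of the smaller library.

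HLU replicate 2 stood apart from the other 3 libraries. Over 6787 genes, the summed log levels of the cells correlated at r = 0.933 to 0.954 among the other 3 libraries and at 0.837 to 0.874 with HLU replicate 2 (a description across genes, which are not independent). This library also held 99849070 UMIs in all, against 47819046 to 61296053 in the others. Median differences of gene groups between HLU and Ctrl are therefore given with and without it.

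Some of the cells lay close to a limit of the rule. No UMI of the dividing-cell genes was found in 81 of the 176 cells, and the rest held 1 or 2. Granule transcripts numbered 10 to 12 UMIs in 20 cells just inside the limit, and 36 cells with 7 to 9 UMIs lay just outside. Monocyte receptor transcripts numbered exactly 3 UMIs in 23 cells, and 47 cells with 2 UMIs lay just outside. UMIs of the dividing-cell genes numbered 2 in 37 cells inside and 3 in 37 cells outside, and 5 cells were left out for their secondary granule transcripts. All 4 granule genes were detected in 97 of the 176 cells and only 1 of them in 14, whereas all 3 monocyte receptor genes were detected in 83.

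The granule genes that name the population lie on chromosomes 10, 11 and 14, with Prtn3 and Elane 3072 bases apart on chromosome 10 (GENCODE M21, mm10). Their promoters are shown because the 4 transcripts occur together in these cells. The RefSeq windows (GRCm38.p6) run from 250 bases before to 50 bases after the annotated start, 5′ to 3′ on the strand of the gene, at chr11:87793534-87793833 (plus strand) for Mpo, chr10:79886062-79886361 (plus) for Elane, chr10:79879417-79879716 (plus) for Prtn3 and chr14:56102525-56102824 (minus) for Ctsg. Capitals mark GAGGAA or its reverse complement TTCCTC, the core letters bound by PU.1, a factor of both the monocyte and granulocyte branches.
Mpo: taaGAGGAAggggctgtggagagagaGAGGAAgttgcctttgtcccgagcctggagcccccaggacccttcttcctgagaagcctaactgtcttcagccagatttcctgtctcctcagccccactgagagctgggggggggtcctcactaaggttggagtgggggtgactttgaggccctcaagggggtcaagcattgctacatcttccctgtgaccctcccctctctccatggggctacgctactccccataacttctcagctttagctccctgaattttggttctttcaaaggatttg
Elane: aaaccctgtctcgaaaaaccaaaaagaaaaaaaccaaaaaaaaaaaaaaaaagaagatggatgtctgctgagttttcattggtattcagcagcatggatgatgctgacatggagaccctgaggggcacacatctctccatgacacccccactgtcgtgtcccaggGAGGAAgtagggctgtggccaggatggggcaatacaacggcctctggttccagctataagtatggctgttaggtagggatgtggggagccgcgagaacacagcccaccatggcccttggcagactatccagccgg
Prtn3: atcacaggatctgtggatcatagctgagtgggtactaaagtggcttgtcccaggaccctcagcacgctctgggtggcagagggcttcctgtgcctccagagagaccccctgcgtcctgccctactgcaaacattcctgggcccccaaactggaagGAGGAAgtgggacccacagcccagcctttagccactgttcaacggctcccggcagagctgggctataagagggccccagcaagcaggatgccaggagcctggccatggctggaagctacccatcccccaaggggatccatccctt
Ctsg: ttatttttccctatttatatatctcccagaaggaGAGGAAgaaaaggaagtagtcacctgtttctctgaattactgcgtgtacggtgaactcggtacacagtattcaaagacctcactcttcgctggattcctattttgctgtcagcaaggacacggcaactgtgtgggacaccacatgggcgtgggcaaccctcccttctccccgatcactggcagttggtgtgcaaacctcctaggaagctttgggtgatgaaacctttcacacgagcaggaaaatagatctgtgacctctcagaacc

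The letters GAGGAA were found in all 4 windows, at bases 4 to 9 and 27 to 32 of Mpo, 166 to 171 of Elane, 156 to 161 of Prtn3 and 35 to 40 of Ctsg, counted from the first base shown. On either strand they occur in 28.3% of 32851 RefSeq promoter windows of the same length. The C/EBP letters TTGCNNNA, present in 33.4% of all windows, were found in Mpo, Elane and Prtn3, and the RUNX letters TGTGGT, present in 16.8%, in Ctsg. The MYB letters AACNG were found in all 4 but also occur in 80.3% of windows. Searches covered both strands, no match overlapped another, and a match describes letters only.

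By selection the cells held the granule transcripts at levels far above those in B cells of the same libraries. Levels are given as CPM, the UMI counts of the summed cells scaled to the same total in every library. Prtn3 stood at 2241, 2088, 1903 and 1457 CPM, against 24.0, 171, 138 and 168 CPM in B cells, which do not make it. Elane stood at 1908, 1741, 1392 and 2097 CPM, against 7.05, 73.2, 126 and 106 CPM in B cells. Prtn3 was lower in both HLU libraries than in both Ctrl libraries, and the groups overlapped for Elane.

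Mpo stood at 363, 686, 436 and 603 CPM, against 4.23, 65.3, 45.4 and 22.9 CPM in B cells. Ctsg stood at 666, 1269, 755 and 2263 CPM, highest in HLU replicate 2, where B cells also held the most at 163 CPM. At least 1 Prtn3 UMI was found in 100% of the cells of every library and in 4.42% to 7.40% of B cells. Single B cell barcodes held up to 12, 418, 317 and 144 UMIs of the 4 granule genes, with a median of 0 in every library, so free RNA of the droplets and barcodes that hold more than 1 cell cannot be told apart in the B cell sums.

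To place the cells, they were compared with 2 populations of the same libraries. The first were 468 granulocyte progenitors, which met the same limits but held fewer than 3 UMIs of the monocyte receptor genes. The second were 1723 monocytes with few granule transcripts, which held fewer than 10 UMIs of the granule genes, fewer than 3 UMIs of the C1q genes of resident macrophages and no Siglech UMI, a marker of plasmacytoid dendritic cells. Their median cell held 9458 to 11641.5 UMIs among the granulocyte progenitors and 8614 to 10908.5 UMIs among the monocytes, fewer than in the cells described here. The populations were set apart by the counts of the rule genes, so the tests below, which leave those genes out, show which other transcripts went with them. Both comparisons use the same sums of the 176 cells.

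Of the markers given for the population, Tmem176b, described below, was higher than in both comparison populations in every library, and Cx3cr1 was detected in more of the cells but overlapped in level. Cx3cr1, the fractalkine receptor of monocytes and their progenitors, was detected in 57.1%, 81.1%, 68.4% and 59.0% of the cells. It was detected in 4.85% to 6.67% of granulocyte progenitors, 8.91% to 47.2% of monocytes and 0.630% to 1.02% of B cells, so no library of a comparison population reached the lowest library of the cells. Shares of cells with a UMI rise with depth, and the median B cell held only 2417.5 to 4240 UMIs, the cells described here 15613 to 23858.

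The level of Cx3cr1 was 60.1, 140, 117 and 85.5 CPM in the cells, 93.4, 4.21, 20.1 and 7.67 CPM in granulocyte progenitors and 53.4, 76.8, 122 and 25.0 CPM in monocytes. The summed level was thus lower in the cells than in granulocyte progenitors in Ctrl replicate 1, and slightly lower than in monocytes in HLU replicate 1. In Ctrl replicate 1 only 5.49% of granulocyte progenitors held a Cx3cr1 UMI, so a small share of them carried this level. In edgeR's quasi-likelihood test with library as a block the log2 difference of Cx3cr1 was 2.10 (SE 0.60, Benjamini-Hochberg adjusted p = 0.0381) against granulocyte progenitors and 0.86 (SE 0.24, adjusted p = 0.014) against monocytes. The first call was lost with DESeq2 (2.60, adjusted p = 0.0815) and without Ctrl replicate 2 (1.55), HLU replicate 1 (2.02) or HLU replicate 2 (1.72), and the second without Ctrl replicate 2 (0.77) or HLU replicate 2 (0.51). With each cell thinned to 2000 UMIs neither difference passed (1.77, adjusted p = 0.0915, and 0.72, adjusted p = 0.157).

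Ly6c2, part of the Ly6C surface antigen of classical monocytes, stood at 977, 1285, 1529 and 3462 CPM in the cells, at 767, 956, 1251 and 5811 CPM in granulocyte progenitors and at 253, 324, 960 and 777 CPM in monocytes. It was higher in the cells than in monocytes in every library (1.81, SE 0.21, edgeR adjusted p = 6.86e-05), and did not pass the test against granulocyte progenitors (−0.08, SE 0.16, adjusted p = 0.811). Reads of Ly6c2 may be shared with its near-identical neighbour Ly6c1. B cells held 28.0 to 753 CPM.

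Ccnd2, encoding the G1 cyclin D2, stood at 19.1, 22.7, 30.9 and 106 CPM in the cells and at 13.3, 9.88, 9.38 and 31.8 CPM in monocytes, higher in the cells in 4 of 4 libraries (1.57, SE 0.21, edgeR adjusted p = 0.000185). Against granulocyte progenitors, at 17.8, 32.0, 27.1 and 155 CPM, it did not pass the test (−0.41, SE 0.19, adjusted p = 0.179). Of the markers, therefore, Ly6c2 and Ccnd2 were higher than in monocytes and did not set the cells apart from granulocyte progenitors.

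**Figure D1:**
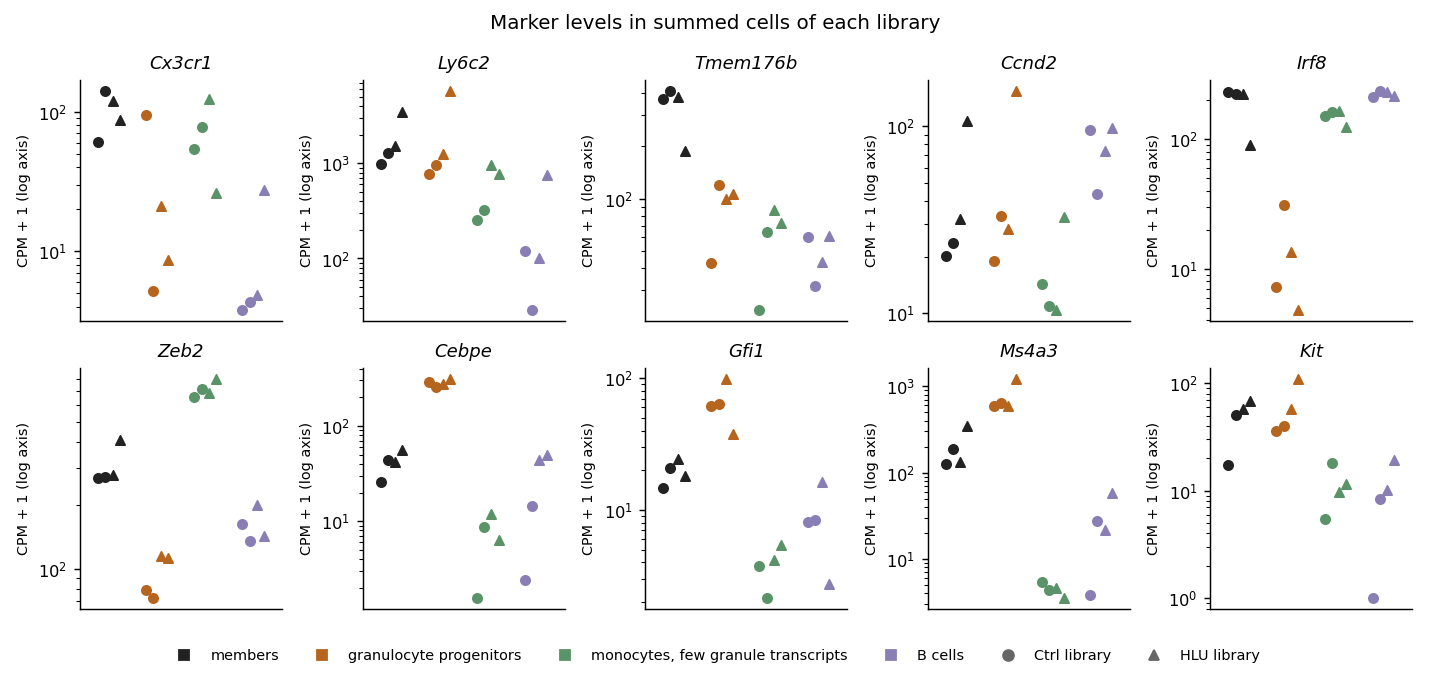
Level of 10 marker genes (CPM + 1, log axis) in the summed cells of each library, for the 176 members, granulocyte progenitors, monocytes with few granule transcripts and B cells; circles are Ctrl and triangles HLU libraries. Irf8 and Zeb2 stand higher in the members and monocytes than in granulocyte progenitors, Cebpe, Gfi1 and Ms4a3 are highest in granulocyte progenitors with the members between, and Tmem176b is highest in the members.

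Relative to granulocyte progenitors, 463 of 7014 genes were higher in the cells (6.60%) and 489 lower (6.97%). Several monocyte factors were higher. Of 6 monocyte transcription factors tested, 4 were higher and none lower (median log2 difference 1.86, against −0.01 over all genes tested). Of 7 progenitor and granulocyte factors, 3 were lower and none higher, with a median of −0.00069, near that of all genes.

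Irf8, the regulator of the monocyte branch, stood at 232, 222, 225 and 90.2 CPM in the cells and at 6.30, 30.3, 12.5 and 3.83 CPM in granulocyte progenitors. The populations did not overlap, and the log2 difference was 3.77 (SE 0.28, edgeR adjusted p = 1.05e-05). Irf5 (2.84) and Zeb2 (1.55), both factors of monocytes and macrophages, also rose. Cebpe, needed for late granule genes, stood at 24.6, 42.5, 40.5 and 55.0 CPM against 284, 253, 271 and 308 CPM (−2.87, SE 0.19, adjusted p = 5.2e-06), and Gfi1 was also lower (−1.81). B cells held 1.41, 13.3, 42.7 and 48.4 CPM of Cebpe, so in the HLU libraries its level in the cells was close to that in the B cell sums.

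Some single barcodes held UMIs of both kinds of regulator. An Irf8 UMI was found in 134 of the 176 cells, and a UMI of Gfi1 or Cebpe in 70. Both were found in 42 cells (7, 6, 12 and 17 by library) and neither in 14. Cebpe alone was detected in 23.8%, 27.0%, 24.6% and 39.3% of the cells, against 0.769% to 6.93% of the shallower B cells. In the HLU libraries its level in the cells was close to that in the B cell sums, as given above. The part of free RNA or of mixed barcodes in these counts was not tested. By library, Irf8 was found in 18 of 21, 29 of 37, 47 of 57 and 40 of 61 cells.

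Genes of classical monocytes rose in the cells relative to granulocyte progenitors, with 14 of 23 higher and 3 lower. S100a4, a calcium-binding protein of motile cells, stood at 352, 605, 375 and 517 CPM against 29.4, 30.3, 24.3 and 28.7 CPM (3.87, SE 0.17, edgeR adjusted p = 3.89e-07). Every library of the cells lay above every library of granulocyte progenitors. Clec4a1, a C-type lectin receptor (4.99), Pld4, a lysosomal nuclease (4.64), Ly86, the partner of the receptor RP105 (4.52), Ctss, cathepsin S (4.11), Vcan, the matrix proteoglycan versican (3.98), Tgfbi (3.86), Wfdc17 (3.81) and Ms4a6b (3.77) were the others of the 10 largest rises. Of 13 inflammatory genes 7 were higher and none lower, among them the chemokine Ccl3 (1.79).

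Other genes of the granule list mostly fell. Of 9 genes listed for granule cargo and its processing outside the rule, 5 were lower and 2 higher. The lower ones included Fcnb, ficolin B (−2.27), and Ms4a3 (−2.13), a progenitor marker placed in this list. The higher ones were Lyz2, lysozyme M (2.57), and Ctsc, the cathepsin that activates the granule proteases (3.64). Ms4a3 stood at 126, 186, 130 and 349 CPM in the cells, against 588, 642, 594 and 1204 CPM. Lyz2 stood at 10258, 13304, 11046 and 11591 CPM, against 1599, 988, 2075 and 2715 CPM.

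Of 9 neutrophil genes outside the rule 5 were lower and 1, Lcn2, was higher (0.48), the former including S100a9 (−2.94), at 641, 5668, 8513 and 6473 CPM against 30520, 23325, 36454 and 28622 CPM. B cells held 1547, 7302, 17590 and 23536 CPM of S100a9, as much as the cells described here or more, so its level in them was not above that in B cells. Pglyrp1 (−2.85), an antibacterial granule protein, and Mogat2 (−3.62) and Ldhc (−3.45) were among the other large falls.

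Some of the largest falls were transcripts of other cell types. Prss34 and Cpa3, proteases of basophils and mast cells, stood at 623, 34.5, 50.02 and 500 CPM and at 59.8, 37.0, 65.3 and 109 CPM in granulocyte progenitors. The cells held 2 UMIs of Prss34 in all, a pooled ratio of 509 (95% exact counting interval 141 to 4207), and Cpa3 was lower by 5.22 on the log2 scale. A Prss34 UMI was found in 2.20%, 2.91%, 2.67% and 8.06% of the granulocyte progenitors, and a Cpa3 UMI in 4.40% to 7.26%. A small share of them thus carried these levels, and the interval covers counting error only. The 6 basophil and mast cell genes summed to 8.19, 9.92, 8.53 and 14.6 CPM in the cells and to 850, 92.6, 135 and 956 CPM in granulocyte progenitors, with Mcpt8 the most abundant in the cells. Prg4 (−3.77) and Acan (−2.67), cartilage transcripts, fell with them, and their part in the result was not tested.

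Of 8 genes of G2 and mitosis outside the rule, 4 were lower than in granulocyte progenitors and none higher, Cks2 by 1.31 on the log2 scale. Of 13 S phase genes 1 was higher and none lower, a share near that of all genes. Of 9 anti-apoptotic genes 4 were higher and none lower. No gene of 17 tested for glutamine uptake and use or of 14 tested for folding in the endoplasmic reticulum passed the test.

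Relative to monocytes with few granule transcripts, 1542 of 8359 genes were higher in the cells (18.4%) and 1548 lower (18.5%). Progenitor genes were higher. Of 7 progenitor and granulocyte factors 6 rose and 1 fell, and of 6 stem and progenitor surface genes 5 rose and none fell. Kit, the receptor for stem cell factor, was higher by 2.43 (SE 0.23, edgeR adjusted p = 1.92e-05) and Cd34 by 2.68 (SE 0.45, adjusted p = 0.000754).

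Ms4a3, a marker of progenitors common to granulocytes and monocytes, showed the largest rise, at 126, 186, 130 and 349 CPM against 4.45, 3.42, 3.66 and 2.52 CPM (6.10, SE 0.30, edgeR adjusted p = 3.97e-07). Myb, a factor that keeps progenitors immature, stood at 71.0, 97.8, 144 and 172 CPM against 2.22, 4.56, 12.1 and 6.25 CPM (4.41, SE 0.22). Neither gene overlapped between the populations. B cells held 2.82 to 56.3 CPM of Ms4a3.

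The other rises among the 10 largest were Ramp1 (3.95), a partner of the calcitonin receptor family, BC035044 (3.95), Nkg7 (3.81), Fcnb (3.69), Cst7 (3.67), a cystatin, Plac8 (3.54), the adhesion molecule Vcam1 (3.40) and Phgdh (3.24), the first enzyme of serine synthesis. Cebpe (2.88) and Gfi1 (2.67), lower than in granulocyte progenitors, were thus higher than in monocytes. Of 8 tested genes of the granule list outside the rule, Ms4a3 included, 5 rose and none fell.

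In the unthinned sums, proliferation genes outside the rule were higher although dividing cells had been left out of both populations. Of 13 S phase genes 11 rose and none fell (median log2 difference 1.89, against −0.02 over all genes), among them Mcm2 (2.78, SE 0.29) and Hells (2.46, SE 0.33). All 6 genes of G2 and mitosis tested rose, Cks2 by 1.43. With each cell thinned to 2000 UMIs, 2 of the S phase genes, Pcna and Slbp, had enough counts to be tested (median −0.15), and these had not passed in the unthinned sums either, while Cks2 stayed higher (1.33). Whether the other S phase genes differ at equal depth was not tested. The cells had been required to hold fewer than 3 UMIs of Top2a, Mki67 and Cdk1, a limit that deeper cells meet less easily.

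Of 7 monocyte transcription factors 5 were lower and none higher, Zeb2 by 1.12 on the log2 scale, whereas Irf8 (0.37, SE 0.19, edgeR adjusted p = 0.151) and Spi1 (0.14), which encodes PU.1, did not pass the test. Without HLU replicate 2, Irf8 passed as higher (0.66, adjusted p = 0.00302). Classical monocyte genes divided, with 8 of 23 higher and 10 lower, among the latter Fn1, fibronectin (−3.12), Vcan (−3.00) and S100a4 (−1.53). Lyz2 (−0.06) did not pass.

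MHC class II genes, which present antigen, fell in 4 of 6 and rose in 2. H2-Aa was seen as 2 UMIs in all 176 cells and stood at 155, 228, 105 and 56.6 CPM in monocytes, a pooled ratio of 172 (95% exact counting interval 47.5 to 1421). An H2-Aa UMI was found in only 8.48%, 8.94%, 5.69% and 4.82% of the monocytes, so a small share of them carried this level. The interval covers counting error only. H2-Eb1 (−5.64) and Cd74 (−1.62), the invariant chain, were also lower, whereas H2-DMa and H2-DMb1, which load peptides, were higher than in both populations. Inflammatory genes fell, 14 of 17 lower and none higher (median −2.24), with Cxcl3 (−4.94), Cxcl1 (−4.14), Ptgs2, the prostaglandin synthase (−3.94), and Il1b (−3.40) among them.

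Osteoclast genes were low. Of 6 tested 5 were lower than in monocytes and none higher, led by Ctsk, the bone-degrading cathepsin K (−6.36), at 8.19, 5.67, 1.07 and 0 CPM against 113, 768, 139 and 48.0 CPM, and Acp5, tartrate-resistant acid phosphatase (−4.37), at 10.9, 7.08, 4.27 and 10.6 CPM against 81.2, 651, 139 and 89.4 CPM. Ednrb (−4.52), Mmp12 (−4.46) and the fatty acid receptor Cd36 (−4.37) completed the 10 largest falls. Of 11 anti-apoptotic genes 7 were lower and 1 higher, of 12 targets of the hypoxia-inducible factor 9 were lower and none higher, and of 20 glutamine genes 7 were lower and 4 higher.

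Most defining markers of other cell types were low or at 0 in the cells, with exceptions. Summed CPM of 7 T cell genes came to 5.46, 15.6, 4.27 and 6.63 (Il7r the most abundant, 3 genes at 0 in every library) and of 8 B cell genes to 177, 140, 221 and 36.5 (Ighm). Cd79b, of the B cell receptor, was detected in 33.3%, 51.4%, 36.8% and 23.0% of the cells, against 7.69% to 13.3% of granulocyte progenitors and 4.24% to 10.6% of monocytes, both shallower, whereas Ms4a1 was detected in at most 1.75%. For 10 dendritic cell genes it came to 79.2, 115, 83.2 and 53.0 (Tcf4, 2 genes at 0) and for 8 resident macrophage genes to 54.6, 108, 243 and 198 (Vcam1, 5 genes at 0). Vcam1 led the last list, whose defining genes C1qa, C1qb and C1qc were at 0 in every library. Cartilage and mesenchymal transcripts, given with the comparison of HLU and Ctrl, reached up to 2186 CPM in Ctrl replicate 1.

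A set of genes was higher in the cells than in both comparison populations. By the criterion of an adjusted p under 0.05 against each and a higher level in 4 of 4 libraries, 55 of 6912 genes tested in both comparisons (0.796%) were chosen. Tmem176a and Tmem176b, which encode related membrane proteins of myeloid cells, had the largest differences by the smaller of the 2 comparisons.

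Tmem176a stood at 232, 251, 364 and 135 CPM in the cells, at 26.2, 78.3, 58.4 and 73.5 CPM in granulocyte progenitors and at 18.9, 46.4, 67.5 and 65.2 CPM in monocytes (log2 differences 1.85, SE 0.27, and 2.37, SE 0.31). Tmem176b stood at 368, 412, 380 and 186 CPM, against 42.0, 118, 98.7 and 105 CPM and 22.2, 63.8, 85.2 and 71.5 CPM (1.71, SE 0.25, and 2.56, SE 0.32). For both genes every library of the cells lay above every library of the others, and HLU replicate 2 was the lowest of the cells. Tmem176b was detected in 60.7% to 73.0% of the cells, 18.7% to 35.9% of granulocyte progenitors and 4.42% to 9.23% of B cells.

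Tmem176a (chr6:48840919-48847071, plus strand) and Tmem176b (chr6:48833818-48841496, minus strand) lie head to head, their annotated bodies overlapping by 578 bases (GENCODE M21, mm10). The kit reads the strand and the 3′ end, where the genes do not overlap. The start region of this pair is shown because both transcripts were higher together. The window is that of Tmem176b at chr6:48841325-48841624 on the minus strand (RefSeq, GRCm38.p6), with GAGGAA and TTCCTC in capitals.
Tmem176b: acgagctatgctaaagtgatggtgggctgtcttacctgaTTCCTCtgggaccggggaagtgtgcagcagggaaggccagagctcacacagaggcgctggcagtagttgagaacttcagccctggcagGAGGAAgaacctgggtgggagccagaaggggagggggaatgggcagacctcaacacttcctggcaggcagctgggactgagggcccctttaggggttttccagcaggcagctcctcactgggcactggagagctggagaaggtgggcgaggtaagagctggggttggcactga

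The window holds TTCCTC at bases 40 to 45 and GAGGAA at bases 128 to 133. The other 2 RefSeq windows of Tmem176b hold neither, and both windows of Tmem176a, which overlap the one shown, hold at least 1. None of these windows holds TTGCNNNA or TGTGGT.

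The other 8 genes named by the same criterion were Bmyc (1.65 against granulocyte progenitors and 1.68 against monocytes), Cp, ceruloplasmin (3.10 and 1.37), the transcription factor Mef2c (1.37 and 1.62), the receptor Gpr171 (1.32 and 1.70), Serpinf1 (2.29 and 1.27), Lgals1, galectin-1 (1.95 and 1.21), Ass1, argininosuccinate synthase (1.93 and 1.20), and the acid-sensing receptor Gpr65 (1.85 and 1.19). Lgals1 stood at 1004, 1303, 1061 and 911 CPM in the cells, at 212, 291, 187 and 313 CPM in granulocyte progenitors and at 480, 552, 543 and 423 CPM in monocytes, with no overlap. The calls against granulocyte progenitors were lost for Bmyc without HLU replicate 1 (1.46), for Mef2c without Ctrl replicate 1 (1.34), Ctrl replicate 2 (1.09) or HLU replicate 1 (1.19), and for Gpr171 without Ctrl replicate 1 (1.08) or HLU replicate 1 (1.11). The call for Serpinf1 against monocytes was lost without HLU replicate 1 (0.98).

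**Figure D2:**
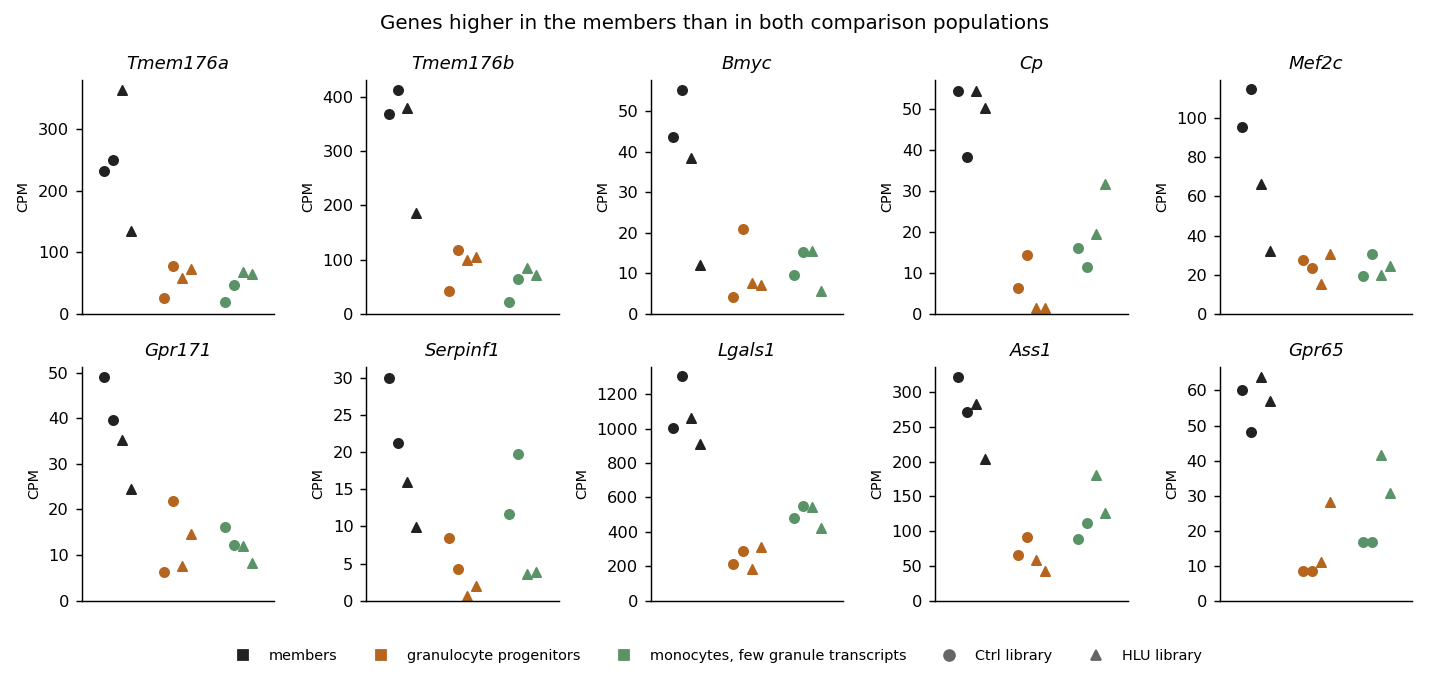
CPM of the 10 named genes above both comparison populations, in the summed cells of each library (circles Ctrl, triangles HLU). For Tmem176a, Tmem176b and Lgals1 every point of the members lies above all points of both other populations.

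The cells were not uniform. When the cells of each library were divided at the median share of UMIs from the 4 granule genes (0.253%, 0.266%, 0.225% and 0.216%), the depth of the parts was alike, with median UMIs of 16858, 17932, 15613 and 25217 in the cells with the lower share and 15357, 17196.5, 15665 and 23410 in those with the upper share. As the division used the granule genes, the levels below are a description with no test, and rise and fall refer to the means of 4 libraries. Mean Elane went from 132 to 3656 CPM and mean Prtn3 from 793 to 3204 CPM between the lower and the upper cells.

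Several progenitor genes that the rule did not use followed the granule genes. Vcam1 went from a mean of 3.53 to 207 CPM, Ms4a3 from 24.7 to 390 CPM, Myb from 37.6 to 214 CPM and Cebpe from 11.97 to 72.5 CPM, each higher in the upper cells in 4 of 4 libraries. Ly6c2 went from 1200 to 2502 CPM, also in 4 of 4. Others did not follow them, as Flt3 went from 25.8 to 3.32 CPM, higher in the upper cells in 0 of 4 libraries, and Cd34 from 21.0 to 23.3 CPM, in 2 of 4.

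Several monocyte genes ran the other way in 4 of 4 libraries, with Cd74 at 284 and 35.9 CPM, S100a4 at 744 and 145 CPM, Ly86 at 105 and 33.5 CPM, Cx3cr1 at 135 and 61.8 CPM and Lyz2 at 15116 and 7566 CPM in the lower and upper cells. Other genes of the classical monocyte list were higher in the upper cells, among them Plac8 (1018 and 2325 CPM) and Chil3 (352 and 986 CPM), each in 4 of 4 libraries, and Thbs1 (1361 and 1857 CPM), in 3 of 4.

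Irf8 and Tmem176b had like means in the lower and upper cells, but single libraries went both ways. Irf8 stood at 211, 174, 259.5 and 125 CPM in the lower cells and at 258, 278, 188 and 52.6 CPM in the upper cells, higher in the latter in both Ctrl libraries and lower in both HLU libraries. Tmem176b stood at 366, 340.4, 466 and 153 CPM in the lower cells and at 371, 496, 287 and 223 CPM in the upper cells, lower in the latter in HLU replicate 1 alone.

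**Figure D3:**
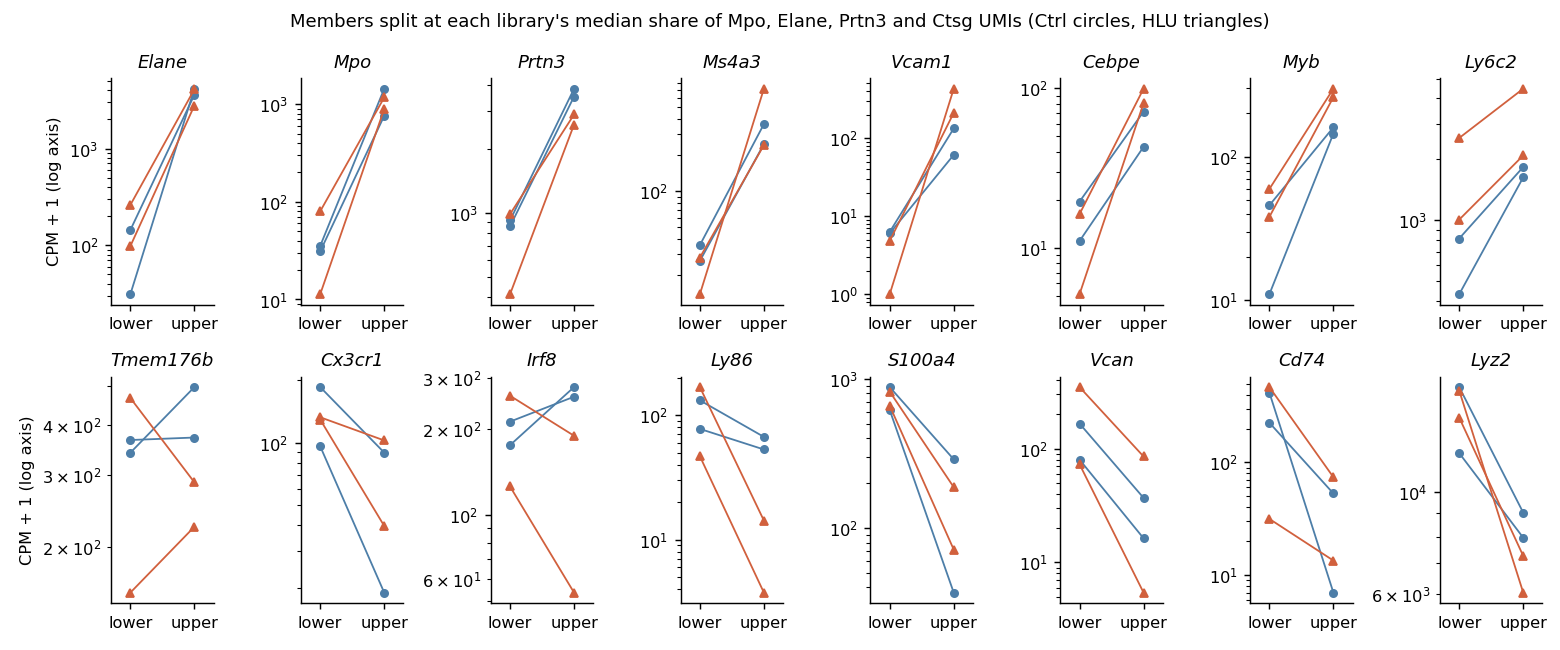
CPM + 1 (log axis) of 16 genes in the members of each library with a lower and an upper share of granule UMIs, divided at the library's median; lines join the parts of 1 library (circles Ctrl, triangles HLU). Lines of Elane, Mpo, Ms4a3, Vcam1, Cebpe and Myb rise in all 4 libraries, those of Cd74, S100a4, Vcan, Ly86 and Lyz2 fall, and those of Irf8 and Tmem176b go up in some libraries and down in others.

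To ask whether unloading changed the abundance of these cells, shares were compared over libraries. The share of all cells was 0.287% (95% exact binomial interval 0.178 to 0.439), 0.494% (0.348 to 0.680), 0.753% (0.571 to 0.974) and 0.685% (0.525 to 0.879), intervals that cover counting error only. Both HLU libraries lay above both Ctrl libraries, 0.719% ± 0.0478 against 0.390% ± 0.146 (SD, n = 2 each; two-sided exact permutation test, p = 0.333, the smallest p that 2 against 2 can give). The design cannot pass a threshold of 0.05.

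The difference depended on what the cells were counted against and on leaving out dividing cells. With dividing cells counted in, the share of all cells was 0.397%, 0.814%, 1.25% and 3.43%, without overlap of the groups and highest in HLU replicate 2. The other shares in this paragraph count the non-dividing cells of the rule. Of cells with a UMI of Ptprc, the pan-leukocyte antigen CD45, they made up 0.716%, 0.854%, 0.883% and 0.762%, with overlapping groups (exact permutation test, p = 0.667). Of cells with at least 3 monocyte receptor UMIs they made up 9.68%, 11.01%, 10.9% and 3.70%, lowest in HLU replicate 2. These denominators of 217, 336, 521 and 1647 cells include dividing cells, which the rule leaves out of the cells counted. With dividing cells counted in, 29, 61, 95 and 305 cells held both kinds of transcripts, so the low value in HLU replicate 2 holds for the non-dividing cells only. Of non-dividing cells with at least 10 granule UMIs, 18.8%, 26.4%, 27.5% and 33.0% also held the monocyte receptor transcripts.

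The rule counts UMIs, so depth enters the share. Among deep cells, those with at least 10000 UMIs, each thinned to that number (a setting chosen after seeing the data, which leaves out 5247, 5244, 6171 and 5933 cells), 11 of 2064, 24 of 2251, 35 of 1400 and 57 of 2969 cells met the rule, or 0.533%, 1.07%, 2.50% and 1.92%. With thinning to 2000 UMIs, which leaves out 1080, 975, 1485 and 587 shallower cells, 0, 4, 0 and 6 cells did. The part of depth in the unthinned shares was not tested otherwise.

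Cells that held both kinds of transcripts and at least 3 UMIs of the dividing-cell genes were counted as the dividing counterpart. They made up 8 of 29, 24 of 61, 38 of 95 and 244 of 305 of all cells with both kinds, or 27.6%, 39.3%, 40% and 80.0% (HLU 60.0% ± 28.3 against Ctrl 33.5% ± 8.31, mean ± SD of 2 libraries; p = 0.333 by exact permutation, the smallest possible). HLU replicate 1 and Ctrl replicate 2 were nearly equal, and HLU replicate 2 was the highest. With cells marked as doublets removed, the shares were 25%, 39.7%, 39.6% and 78.6%, and the groups overlapped (exact permutation test, p = 0.667). Thinned to 10000 UMIs, leaving out 2, 1, 5 and 6 shallower cells, the shares were 29.6%, 25.0%, 38.9% and 52.2%. In the same 4 libraries the dividing share was 28.9%, 29.0%, 38.8% and 69.4% for granulocyte progenitors and 4.62%, 6.37%, 7.75% and 24.6% for monocytes.

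**Figure D4:**
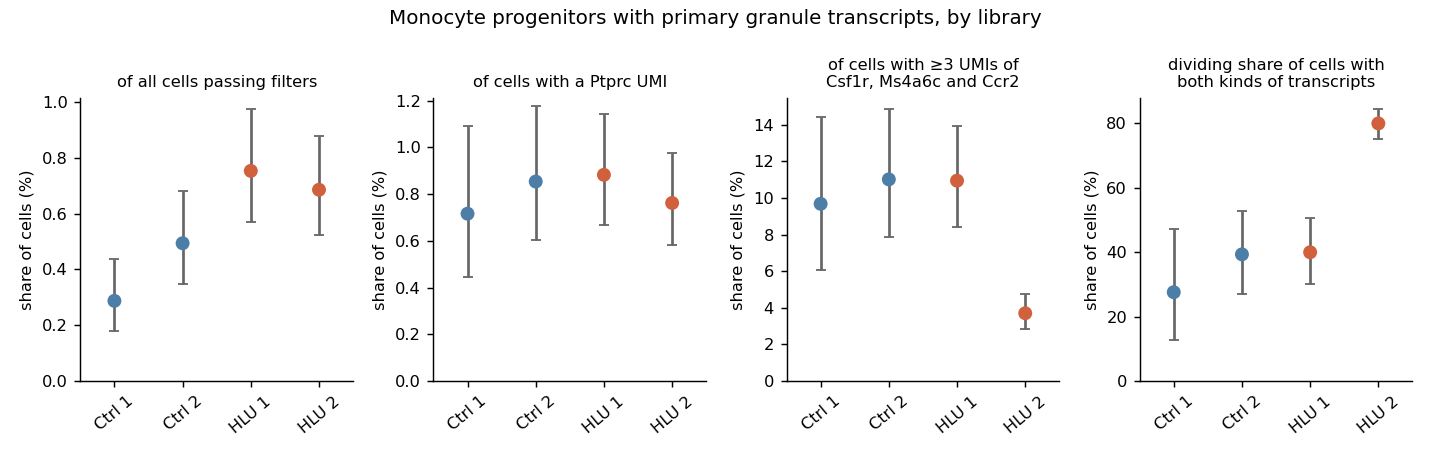
Share of cells (%) in each library that met the rule, of all cells, of cells with a Ptprc UMI and of cells with monocyte receptor UMIs, and the dividing share of cells with both kinds of transcripts; bars are 95% exact binomial intervals for counting error. Both HLU libraries lie above both Ctrl libraries in the first panel, the groups overlap in the second, and HLU replicate 2 stands apart at 3.70% in the third and 80.0% in the fourth.

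Between HLU and Ctrl, 6 of 6708 genes differed in the cells (0.0894%), all lower in HLU. In edgeR's quasi-likelihood test on the library sums the Benjamini-Hochberg adjusted p was 0.0374 for each. Before adjustment 206 genes had p under 0.05. With DESeq2, 22 genes passed, 2 higher and 20 lower. The 6 were Dcn (decorin), Prg4 (lubricin), Clu (clusterin), Ctgf, Chad (chondroadherin) and 1500015O10Rik, transcripts of cartilage and connective tissue.

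Dcn stood at 1340, 353, 0 and 1.33 CPM, a pooled ratio of Ctrl to HLU of 844 (95% exact counting interval 233 to 6982). Prg4 stood at 106, 256, 0 and 0.663 CPM (ratio 502, interval 89.1 to 19911), Clu at 158, 112, 0 and 1.33 CPM (156, 42.4 to 1303) and Ctgf at 287, 106, 1.07 and 1.33 CPM (137, 46.1 to 670). These intervals, that of Dcn included, pool the libraries of a group. They cover counting error only, not the spread between libraries. 1500015O10Rik, at 101 and 126 CPM in Ctrl, was at 0 in both HLU libraries and so at least 92.6-fold lower, taking 3 counts over both libraries as the floor. Chad stood at 65.5, 55.3, 1.07 and 1.99 CPM (log2 difference −5.20, SE 0.55).

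Cartilage and mesenchymal transcripts were also present in B cells, which do not make them. The lists summed here hold the called genes except Ctgf, for which no level in B cells is given. Summed over 21 cartilage genes, the level was 860, 819, 22.4 and 8.62 CPM in the cells (Prg4 the most abundant, 3 genes at 0 in every library) and 8064, 12934, 16.7 and 88.9 CPM in B cells of the same libraries. Summed over 19 mesenchymal genes, it was 2186, 554, 14.9 and 7.29 CPM in the cells (Dcn the most abundant) and 4452, 7705, 39.996 and 209 CPM in B cells. With transcripts of other cells left out before normalization, edgeR called 0 of 6680 genes (191 at an unadjusted p under 0.05). Of the 6 genes only Ctgf was still among those tested, with nearly the same difference (−7.24, adjusted p = 0.17). With 21 cells drawn from every library it called 0 of 4298 (149), where the fitted differences, which depend on the prior count, were still large for Dcn (−11.52), 1500015O10Rik (−8.69) and Prg4 (−7.21). With at least 10 counts required in every library it called 0 of 3807 (90), a filter that removes the 6 genes by construction.

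Outside these transcripts no gene passed the test, and values are given by gene group. Of the 6708 genes, 1340 (20%) were higher in both HLU libraries than in both Ctrl libraries and 887 (13.2%) were lower in both.

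All 16 glycolysis genes tested had lower fitted levels in HLU, and in 13 of them both HLU libraries lay below both Ctrl libraries (median log2 difference −0.91, against 0.02 over all genes). Their summed level was 20952, 23635, 16722 and 7541 CPM, lowest in HLU replicate 2, and the median was −0.44 without that library and −1.81 without HLU replicate 1. Pgk1, phosphoglycerate kinase, stood at 2410, 2682, 1580 and 464 CPM (−1.37, SE 0.59, edgeR adjusted p = 0.969) and Gapdh at 6996, 7523, 5647 and 2471 CPM (−0.90, SE 0.47, adjusted p = 0.969). The groups did not overlap for either gene. Summed glycolysis genes in B cells ran in the same order, 8328, 11619, 7857 and 3543 CPM.

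Targets of the hypoxia-inducible factor, induced when oxygen is low, behaved alike. All 12 tested were lower in HLU as fitted and 7 did not overlap between groups (median −1.43, −0.69 without HLU replicate 2 and −2.59 without HLU replicate 1). Their summed level was 2156, 2795, 1539 and 519 CPM in the cells and 1668, 2258, 1034 and 422 CPM in B cells. Ero1l, an oxidase of protein folding, stood at 909, 1044, 432 and 113 CPM (−1.89, SE 0.63), Egln3, an oxygen sensor, at 95.5, 187, 55.5 and 7.96 CPM (−2.26, SE 0.85), and Slc2a1, the glucose transporter GLUT1, at 101, 102, 39.5 and 15.3 CPM (−1.99, SE 0.54), none passing the test (edgeR adjusted p = 0.969 for each). Ero1l, Egln3, Slc2a1 and Pgk1 passed in the smaller fits without HLU replicate 2 (−1.19, −1.40, −1.37 and −0.70) and without HLU replicate 1 (−3.30, −4.36, −2.91 and −2.65), and Gapdh without HLU replicate 1 (−1.74), in each of which the lone HLU library was assumed to vary like the Ctrl libraries. With no filter on low counts Ero1l, Egln3 and Slc2a1 passed too. They also passed with the replicate number as a block (−2.23, −2.64 and −2.13), although the numbers do not pair the mice.

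Proliferation and inflammatory genes rested on HLU replicate 2. Of 13 S phase genes 11 had higher fitted levels (median 0.66), but the median was −0.54 without HLU replicate 2 and 1.296 without HLU replicate 1. Their summed level was 390, 357, 289 and 914 CPM. Inflammatory genes summed to 2413, 3886, 2421 and 7788 CPM, with a median of 0.30, of −0.45 without that library and of 0.85 without Ctrl replicate 2.

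The chemokine Ccl4 stood at 60.1, 96.3, 216 and 1428 CPM, above Ctrl in both HLU libraries (3.23, SE 0.82, edgeR adjusted p = 0.969). It passed the test with DESeq2 (3.24, adjusted p = 0.00165), and in edgeR without HLU replicate 1 (3.95) and without HLU replicate 2 (1.41, adjusted p = 0.000338), and likewise with no filter on low counts. With the replicate number as a block Ccl4 passed as well (2.86, edgeR adjusted p = 7.25e-05). In B cells, at 145, 115, 90.7 and 78.3 CPM, it ran the other way. Il1b, interleukin-1β, stood at 73.7, 123, 102 and 1091 CPM, with HLU replicate 1 between the Ctrl libraries (2.43, SE 0.94, adjusted p = 0.969, and passing only without HLU replicate 1 and with no filter on low counts).

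Mature neutrophil genes outside the rule had higher fitted levels in all 8 tested, 5 without overlap (median 0.93, 1.12 without HLU replicate 2, and 0.50 to 2.22 without Ctrl replicate 1 or Ctrl replicate 2). Their list, rule genes included, summed to 5118, 15520, 20473 and 21120 CPM in the cells and to 4341, 18997, 41920 and 56261 CPM in B cells, with S100a8 the most abundant. The part of free RNA or of mixed barcodes in this difference was not tested.

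Groups that the study's question concerns showed no call. Of 17 glutamine genes tested, 10 had higher and 7 lower fitted levels (median 0.21), with a summed level of 1419, 1320, 1942 and 1597 CPM. Glud1, glutamate dehydrogenase, stood at 115, 105, 90.6 and 119 CPM (−0.16, SE 0.34) and Gclc, of glutathione synthesis, at 27.3, 26.9, 60.8 and 32.5 CPM (0.70, SE 0.50). With 1 library left out the median ran from 0.02 without HLU replicate 2 to 0.62 without Ctrl replicate 1. The groups overlapped for Glud1 but not for Gclc, whose HLU libraries were higher. For anti-apoptotic genes the median was −0.03 over 10 tested, −0.25 without HLU replicate 2, −0.39 without Ctrl replicate 1 and 0.49 without Ctrl replicate 2. For pro-apoptotic genes it was −0.18 over 13 tested, 0.04 without HLU replicate 2 and −0.39 without HLU replicate 1. The sign of both medians thus turned with the library left out.

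The apoptosis inhibitor Xiap stood at 40.9, 39.7, 35.2 and 21.9 CPM and its mitochondrial antagonist Diablo at 16.4, 26.9, 28.8 and 28.5 CPM. Both HLU libraries lay below both Ctrl libraries for Xiap and above them for Diablo. Neither gene passed the test in edgeR (log2 differences −0.59 and 0.26, adjusted p = 0.969 and 0.974). Without HLU replicate 2 the differences were −0.20 and 0.33, and without Ctrl replicate 1 that of Diablo was −0.0063.

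Of the markers of the population, Ly6c2 (1.02), Ccnd2 (1.58), Tmem176b (−0.53) and Cx3cr1 (−0.09) did not pass the test between HLU and Ctrl (edgeR adjusted p = 0.969, 0.969, 0.969 and 0.996). Without HLU replicate 1 the first 3 passed (1.42, 2.12 and −1.26), and without HLU replicate 2 none did (0.42, 0.53, −0.05 and 0.15). Classical monocyte genes summed to 12829, 12991, 11924 and 12737 CPM, slightly lower in each HLU library than in either Ctrl library (median −0.21, and −0.14 without HLU replicate 2). Genes of folding in the endoplasmic reticulum summed to 3469, 4246, 2550 and 5391 CPM, with overlapping groups (median −0.02, −0.68 without HLU replicate 2 and 0.40 without HLU replicate 1).

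Whether the HLU difference in the cells departed from that in the other populations was tested as an interaction in edgeR. It passed for 2 of 8135 genes (0.0246%) against granulocyte progenitors, Ccl2 and Sdc4, and for 1 of 9277 (0.0108%) against monocytes, Mmp13. Without HLU replicate 1 or without HLU replicate 2, the count against granulocyte progenitors was 0 (476 and 216 genes at an unadjusted p under 0.05). Neither Ccl2 nor Sdc4 passed without Ctrl replicate 2, and Mmp13 did not pass without HLU replicate 2, where the 10 genes called against monocytes were all higher.

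**Figure D5:**
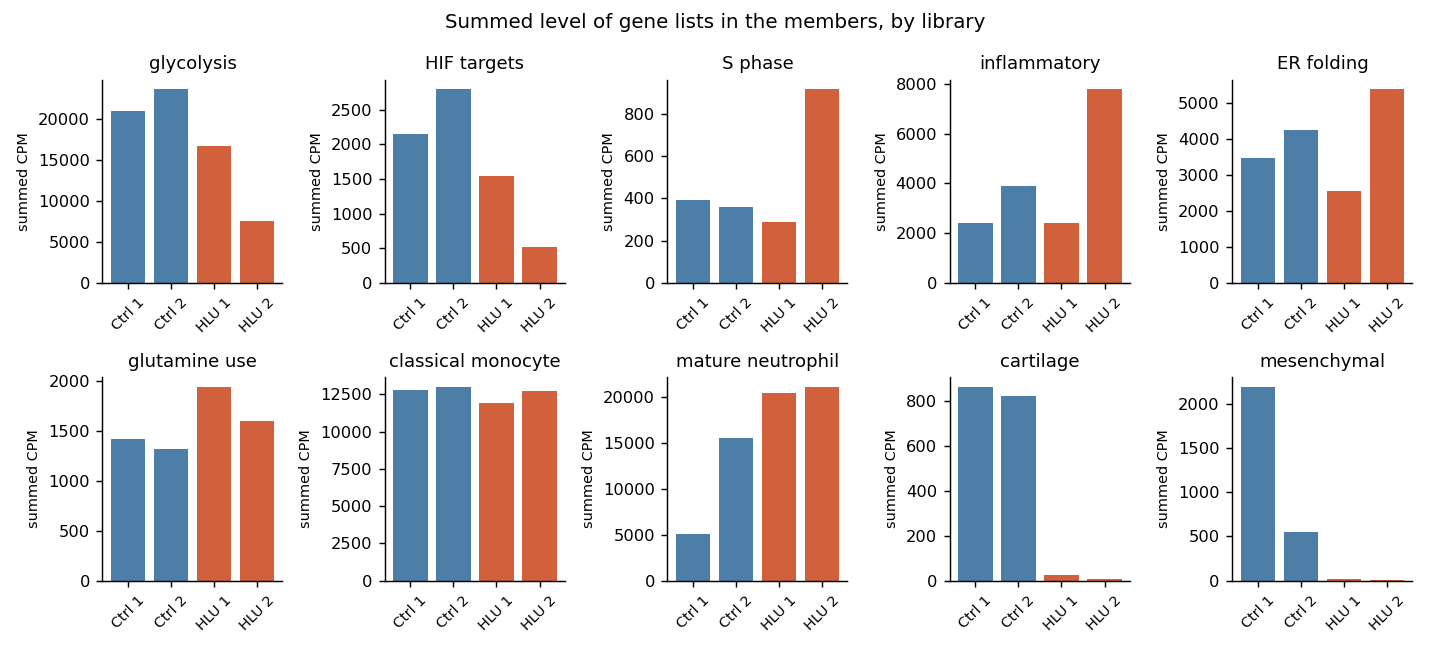
Summed CPM of 10 gene lists in the members of each library (bars, 1 per library, Ctrl blue and HLU orange; each panel has its own axis from 0). Glycolysis and hypoxia-inducible factor targets are lower in both HLU libraries and lowest in HLU replicate 2, S phase and inflammatory genes are highest in HLU replicate 2 alone, and cartilage and mesenchymal transcripts are nearly absent from both HLU libraries.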

How the data were processed

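The authors made the UMI counts per gene and barcode with Cell Ranger 6.0.0 on mm10 (submitters' notes, which also name Seurat 4.1.0) and deposited them as raw counts without normalization, in filtered matrices of 10000 to 10003 barcodes and 31053 genes per library. Samples were grouped by the labels. The members, gene lists and tests were chosen with earlier results of these data known.

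Cells were selected by the stated UMI limits, and counts were summed per library and population and expressed as CPM. Doublets were scored with Scrublet in scanpy 1.11.5 at 0.8% per 1000 cells and kept. Sums were tested with edgeR 4.0.16 (R 4.3.3, limma 3.58.1) by glmQLFit and glmQLFTest with TMM factors, edgeR's filter on low counts and Benjamini-Hochberg adjustment over all genes tested, at 0.05. Population comparisons had library as a block and left the 13 rule genes out of the tests. The Wilcoxon test over cells of the study's methods was replaced, since cells of 1 library are not replicates. Shares were compared by exact permutation over libraries. Alternatives were DESeq2 1.42.0, other filters and scaling, thinning, doublet removal, each library left out and others given in the closing section. DESeq2 is used only as an alternative.

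Named genes were the given markers, genes of the lists and, per population comparison, the 10 largest rises and falls among genes with adjusted p under 0.05, the same direction in 4 of 4 libraries and at least 50 CPM in the higher population; for genes above both populations, the 10 with the largest smaller difference; for HLU, genes with adjusted p under 0.05 and no overlap of groups. On simulated data with 200 genes changed by 2 on the log2 scale, edgeR recovered 149 for HLU against Ctrl (4835 genes, 6 false calls) and 200 in each population comparison (4821 and 6044 genes, 8 false calls each). For the interactions it recovered 177 against granulocyte progenitors (10 false calls) and 179 against monocytes (9 false calls). The simulated libraries shared the same mean profile and a smoothed spread, with none set apart as HLU replicate 2 was. Recovery in the real libraries was therefore not measured. Gene positions came from GENCODE M21, which held 30934 of the 31053 genes (99.6%), and promoters from RefSeq (GRCm38.p6). Other steps used Python 3.11.15, numpy 2.4.6, pandas 2.3.3 and scipy 1.17.1. Some genes of the lists are not reported here.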

Additional observations from a re-analysis of the deposited data

Results flagged for a closer look

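The HLU difference of Ccl2, a chemokine that attracts monocytes, was greater in the cells than in granulocyte progenitors by 4.83 on the log2 scale (edgeR interaction, Benjamini-Hochberg adjusted p = 0.0387), at 8.19, 12.8, 24.5 and 82.9 CPM in the cells and 10.5, 67.4, 1.39 and 14.7 CPM in granulocyte progenitors, with libraries in the order used above. That of Sdc4, the cell surface proteoglycan syndecan-4, was greater by 4.75 (edgeR adjusted p = 0.0387), at 87.3, 80.8, 59.7 and 63.0 CPM and 71.4, 223, 6.25 and 1.92 CPM. In the same sums of granulocyte progenitors the cartilage transcripts came to 2851, 7895, 25.0 and 307 CPM (Prg4 the most abundant) and the mesenchymal transcripts to 1922, 4130, 59.1 and 59.4 CPM (Dcn), and their part in the result was not tested. Neither gene passed without Ctrl replicate 2 (3.36 and 3.83), HLU replicate 1 (4.54 and 5.83) or HLU replicate 2 (5.98 and 4.03), and the latter 2 each left 0 genes. The HLU difference of Mmp13, a collagenase, was lower in the cells than in monocytes by 4.76 on the log2 scale (−4.76, edgeR adjusted p = 0.0236), at 32.8, 25.5, 1.07 and 2.65 CPM in the cells and 70.0, 87.0, 33.0 and 208 CPM in monocytes. Without HLU replicate 2 Mmp13 did not pass (−3.35). Cartilage transcripts in the same sums came to 860, 819, 22.4 and 8.62 CPM in the cells. In monocytes they came to 3029, 4520, 22.0 and 429 CPM, and their part in the result was not tested.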

How the results depend on the processing

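Of 1033 values of single genes under the alternatives, 972 kept their direction and their side of the threshold, 28 newly passed, 24 no longer passed and 9 changed sign. The sign changed for the HLU difference of Cx3cr1 without Ctrl replicate 2 or HLU replicate 2 (−0.55 to 0.68 over the libraries left out), with at least 20 granule UMIs (0.35) and with equal cell numbers (0.21), for that of Hells (−0.59 to 1.96) and Mcm2 (−0.54 to 1.98) without HLU replicate 2, for Ly6c2 against granulocyte progenitors without HLU replicate 2 (−0.20 to 0.19) and thinned to 2000 UMIs (0.17), and for Lyz2 against monocytes without HLU replicate 1 (−0.20 to 0.14). None of these passed the test as reported or with its sign changed. The HLU differences of Xiap, Diablo, Glud1 and Gclc are outside these counts, and that of Diablo also changed sign without Ctrl replicate 1 (−0.0063). The HLU minus Ctrl difference in the share of cells, 0.329 percentage points of all cells, became −3.02 points of cells with monocyte receptor UMIs, and stayed between 0.225 and 0.432 with each library left out. The cells with monocyte receptor UMIs include dividing cells, which the rule leaves out. With dividing cells counted in, the difference was 1.74 points of all cells. The HLU calls numbered 22 with DESeq2, 116 with no filter on low counts, and 0 with at least 10 counts in every library, with equal cell numbers or with transcripts of other cells left out. With each library left out they ranged from 10 to 1420, the latter without HLU replicate 1, with 10 without Ctrl replicate 1, 19 without Ctrl replicate 2 and 99 without HLU replicate 2. With the replicate number as a block they numbered 71 (18 higher, 53 lower), but the numbers do not pair the mice, as only 2 pairs exist and deviations of same-numbered libraries correlated at 0.107 over 6787 genes. The 952 calls among 7014 genes against granulocyte progenitors became 629 with DESeq2, 1482 with no filter, 223 of the 1746 genes tested when thinned to 2000 UMIs and 498 to 976 with 1 library left out, the fewest without HLU replicate 1. The 3090 calls among 8359 genes against monocytes became 912 of the 2949 tested when thinned to 2000 UMIs, and 2107 to 2901 with 1 library left out. Interaction calls against granulocyte progenitors (2) numbered 6 with DESeq2, 46 with no filter and 0 to 7 with 1 library left out, and against monocytes (1) they numbered 3, 65 and 4 to 30. The causes of these shifts were not tested. Thinning to 10000 UMIs and the doublet filter on the dividing share were chosen after seeing the data. Ctrl replicate 1 holds 21 cells, which limits the depth of the HLU comparison.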
